A study of Mus musculus and Homo sapiens with 10 samples.

Results

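Genomic regions of K562 cells that carried H3K27ac and H3K4me1 but no called H3K122ac are described here. K562 is a human erythroleukaemia cell line, grown in serum and used at passage 14 without treatment. An island is a stretch of neighbouring 200 bp windows enriched in one library over a background library. An H3K27ac island was taken when it overlapped an H3K4me1 island by at least 1 bp and overlapped no H3K122ac island. The regions were chosen by the called islands of the 3 lists, that is by enrichment over background in each. This selected 52446 of the 173981 H3K27ac islands, or 30.1% (Wilson 95% interval 29.9 to 30.4%, counting error only). They are called H3K122ac-negative below, which means that no H3K122ac island was called there, not that the mark was absent. Because the same lists chose the regions, the marks' presence, folds and lengths are descriptions. The study mapped histone H3 acetylation by native chromatin immunoprecipitation after micrococcal nuclease digestion, in mouse embryonic stem cells (6 libraries) and K562 (4 libraries). K562 gave 1 library for each of the 3 marks and 1 for input chromatin, so no replicate error or test between groups could be had. K562 is a leukaemic line with a rearranged genome, and its chromatin need not match that of normal erythroid cells.

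In general, acetylation of lysine 27 on the H3 tail is placed by the coactivators CBP and p300 and marks active promoters and enhancers. Monomethylation of lysine 4 is placed mainly by the MLL3 and MLL4 methyltransferases, spreads over enhancers and the flanks of promoters, and is also found at enhancers that are not active. The residue of H3K122ac sits in the globular core of H3, where the histone octamer holds the DNA most tightly, and its acetylation is known to loosen that contact. The study asks whether core acetylation marks a class of enhancers, and the islands below are those with both classical enhancer marks outside the called H3K122ac territory.

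The H3K122ac list was the shallowest of the 3, with 18283729 reads in its islands against 34195325 for H3K27ac and 35562145 for H3K4me1. Its library held 0.258 times the reads of the background library, against 0.688 and 0.581. The fewest reads in any called island were 22, 25 and 28 in the same order. Of all H3K27ac islands, 58.1% met no H3K122ac island and 69.4% met H3K4me1. Of the 120729 that met H3K4me1, 43.4% were H3K122ac-negative. This last share is the base for the shares below that are taken over islands with H3K4me1. For shares taken over all H3K27ac islands, as by chromosome and by window, the base is 30.1%.

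Over the whole H3K27ac list the median fold over background was 2.27 and the median length 1200 bp. The H3K122ac-negative islands had the same median length and a slightly lower median fold. Their median H3K27ac fold over background was 2.18, with quartiles of 1.77 and 2.75 and a range of 1.10 to 21.1. Their median length was 1200 bp, with quartiles of 800 and 2000 bp and a maximum of 31200 bp. A typical island held 96.0 H3K27ac reads over 65.0 background reads. Together they spanned 82.8 Mb, which was 26.3% of the base pairs of the H3K27ac list, and held 20.5% of its reads. In them H3K27ac was thus thinner than over the list as a whole.

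Beside them, the 68283 islands with all 3 marks had a median H3K27ac fold of 2.91 and were 1600 bp long at the median. The 48671 islands with neither other mark had a median fold of 1.96 and a length of 1000 bp. The H3K122ac-negative islands therefore lay between these classes in both measures. Background density was alike in all 3 classes, at a median of 55.0 reads per kb. The background count per island was not, with medians of 65.0 in H3K122ac-negative islands, 91.0 with all 3 marks and 53.0 with neither other mark. The distributions overlapped in part. The upper quartile of the H3K122ac-negative islands, 2.75, was below the median of islands with all 3 marks. A fold of 3 or more was reached by 18.3% of the H3K122ac-negative islands and 48.1% of those with all 3 marks. It was reached by 9.18% of those with neither other mark and 27.9% of the whole list. On the log2 scale, the median fold of islands with all 3 marks minus that of H3K122ac-negative islands was 0.42. The sign was positive on each of the 23 chromosomes, with values of 0.27 to 0.60. The log2 difference in median length was also 0.42, from lengths that come in steps of 200 bp and so allow few values. Among the 20000 islands of highest fold in each list these differences were 0.23 and 0.70. Within 17 bands of like length and background reads, each with at least 50 islands of either class, the fold difference was positive in 17 and averaged 0.36, weighted by the number of H3K122ac-negative islands.

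**Figure D1:**
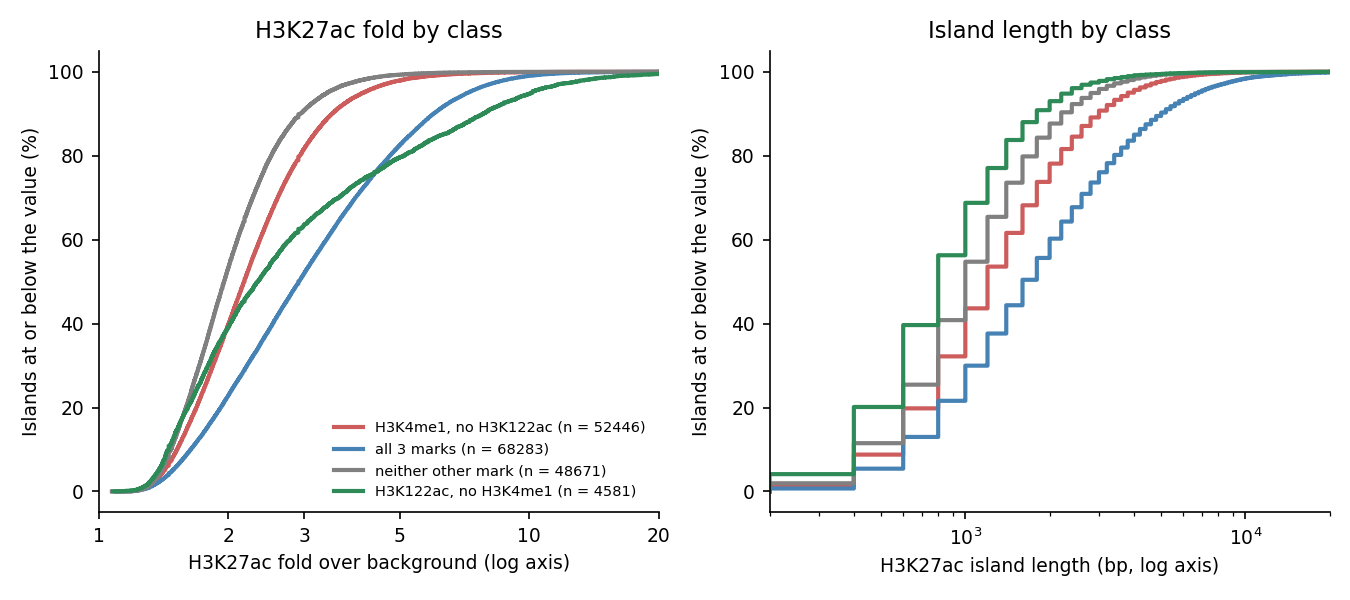
Cumulative share of H3K27ac islands (y axis, %) by H3K27ac fold over background (left, log axis) and by island length in bp (right, log axis), 1 line for each of the 4 classes of the H3K27ac list. The islands with H3K4me1 and no H3K122ac (red, median fold 2.18 and length 1200 bp) run between those with all 3 marks (blue, 2.91 and 1600 bp) and those with neither other mark (grey, 1.96 and 1000 bp).

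The H3K4me1 islands that they met had a median fold of 2.85, with quartiles of 2.04 and 3.95. Islands with all 3 marks met H3K4me1 islands with a median fold of 3.54. The log2 difference of 0.31 was less stable than that of H3K27ac. It averaged 0.27 within the bands of like length and background, where it was positive in 15 of 17. It was 0.16 at a q-value of at most 1e-10, 0.17 when H3K4me1 needed a fold of 2 or more and 0.48 with no H3K122ac within 5000 bp, and it turned to -0.05 among the 20000 islands of highest fold per list. The direction for H3K4me1 thus holds for these lists as deposited and not for their most enriched islands.

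Among H3K27ac islands with H3K4me1, the share without H3K122ac varied more with the H3K27ac fold than with the H3K4me1 fold. In the lowest quintile of H3K27ac fold (1.10 to 1.78) 57.0% were H3K122ac-negative, and in the highest (3.88 to 27.9) 12.8% were. The first 3 quintiles were close to each other, at 57.0%, 57.1% and 52.4%. The share was then 37.8% in the quintile from 2.79 to 3.88. By H3K4me1 fold the share went from 62.5% in the lowest quintile to 31.3% in the highest. Combining both, 10.8 to 15.4% of islands were H3K122ac-negative in the highest quintile of H3K27ac, whatever the H3K4me1 quintile. In each H3K27ac quintile the share was lowest at intermediate H3K4me1 folds and higher at both ends. In the second H3K27ac quintile, for example, it was 67.0% at the lowest H3K4me1 fold, 49.8% in the middle and 59.5% at the highest. With H3K27ac in its lowest quintile, the share was 60.7% at the lowest H3K4me1 fold, 52.1% in the next quintile and 64.1% at the highest, where there were 671 islands. These islands needed at least 10 background reads in both lists. The marks share a background library, so their folds are not independent of each other. Median background in H3K122ac-negative islands was 68.0 reads per kb at H3K4me1 folds up to 1.5 and 40.8 at folds over 5 and up to 8. The part of background in the higher share at high H3K4me1 folds was not tested. Across the H3K122ac-negative islands the Spearman correlation of the H3K27ac and H3K4me1 folds was 0.48 (n = 52446 islands), and 0.41 over the 33726 with at least 50 background reads.

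**Figure D2:**
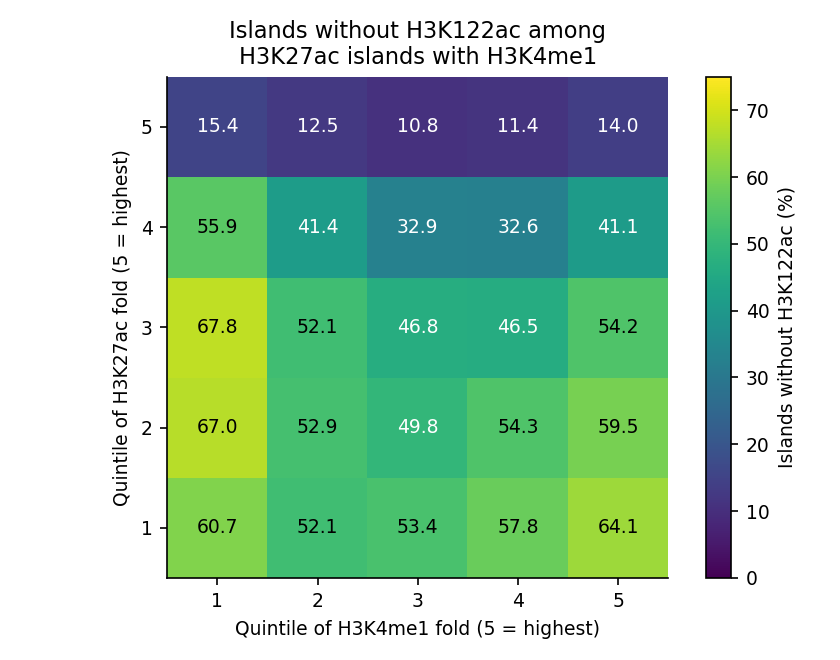
Share of H3K27ac islands with H3K4me1 that lacked a called H3K122ac island (colour and number, %), by quintile of H3K4me1 fold (x axis) and of H3K27ac fold (y axis), where 5 is the highest. The top row, the highest H3K27ac quintile, holds 10.8 to 15.4%, while the corner of lowest H3K27ac and highest H3K4me1 holds 64.1%.

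Length and background reads moved with the share too. It was 61.6% for islands of 200 bp, 46.7% for those over 1000 and up to 2000 bp, 19.2% for those over 4000 and up to 10000 bp and 7.30% for longer ones. A longer island has more room to meet any other island, and this part was not tested. By background, the share was 53.3% from 20 to under 50 reads, 38.0% from 100 to under 200 and 13.3% from 500 upward. Background reads and length were nearly interchangeable in these islands, with a Spearman correlation of 0.89 across 52446 islands.

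How much H3K122ac could have gone uncalled was read from the list itself. Among called H3K122ac islands with background counts within 10% of 50, the lowest fold was 1.94 and the 5th percentile 2.61. At 20 background reads these were 3.87 and 5.16, and at 200 they were 1.32 and 1.55. The lowest H3K27ac folds called at the same counts were 1.40, 1.65 and 1.20. The H3K122ac list thus needed a higher fold than the H3K27ac list at each of these background counts, most of all at low ones. Matched to each H3K122ac-negative island by its whole background count, the 5th percentile of called H3K122ac folds had a median of 2.23, with quartiles of 1.70 and 3.10. A shorter H3K122ac stretch inside an island would hold fewer background reads and so need a higher fold. The lowest called H3K122ac fold, matched in the same way, had a median of 1.60, and enrichment below the lowest called fold could not be told from none.

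That level can be set beside the H3K122ac folds seen where the mark was called. In islands with all 3 marks and an H3K27ac fold over 2 and up to 3, the median H3K122ac fold was 5.05 and the lower quartile 3.51. For the 21944 H3K122ac-negative islands of the same H3K27ac fold, the matched 5th percentile of called folds was 2.25. With an H3K27ac fold over 3 and up to 5, the values were 8.17 and 5.62 against 3.21 for 8518 H3K122ac-negative islands. In 79.4% of all H3K122ac-negative islands (41619) the matched 5th percentile was under the lower quartile of the H3K122ac fold in islands with all 3 marks of like H3K27ac fold. In 96.8% it was under the median. Both sides are called H3K122ac folds, and a 5th percentile tends to lie under a quartile or a median. These shares were thus largely fixed in advance and do not show whether H3K122ac would have been called. The classes were matched by H3K27ac fold and not by background. At folds over 3 and up to 5, background was 38.0 reads in H3K122ac-negative islands and 94.0 in islands with all 3 marks. The folds of islands with all 3 marks were themselves cut by the calling threshold, so they overstate H3K122ac at weak sites.

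**Figure D3:**
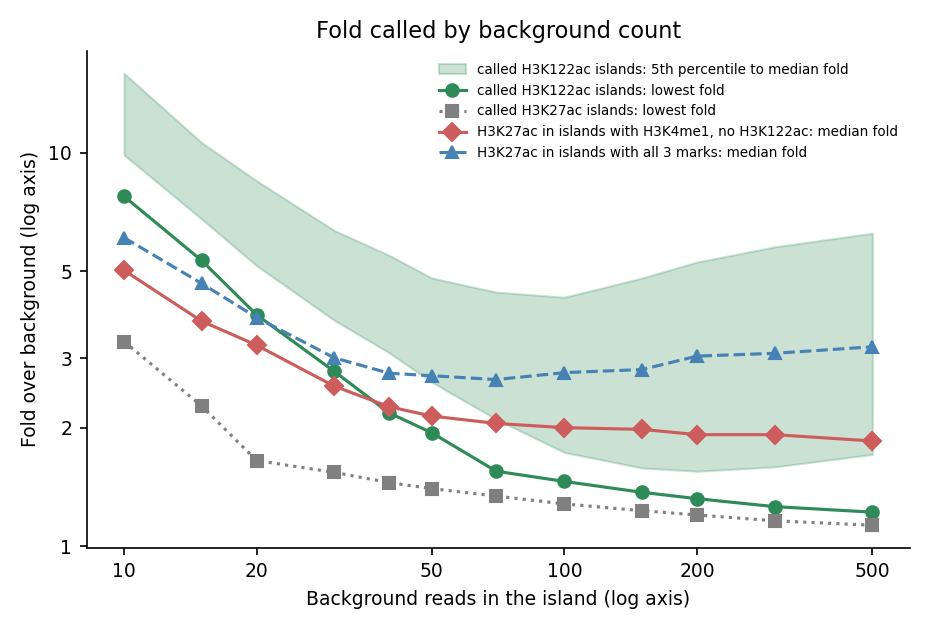
Fold over background (y axis, log) against background reads in the island (x axis, log), at 12 background counts, each taken within 10%. The lowest called H3K122ac fold (green line) is 3.87 at 20 reads and 1.32 at 200, and the median H3K27ac fold of the islands with H3K4me1 and no H3K122ac (red) crosses it, from 3.24 at 20 reads to 1.92 at 200.

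Counts were firmer and folds higher in islands with an H3K27ac fold of 3 or more and at least 50 background reads. There were 3262 such H3K122ac-negative islands, with a median H3K27ac fold of 3.36, a median H3K4me1 fold of 4.22 and a typical length of 2000 bp. They made up 12.1% of the islands with H3K4me1 that met both limits, the other 23770 having all 3 marks. Of the 3262, 1671 had no H3K122ac island within 5000 bp, and these had median folds of 3.35 for H3K27ac and 3.74 for H3K4me1. That share was near the 51.8% of all H3K122ac-negative islands. The median gap to H3K122ac was 5400 bp in the 3262 as in the whole class.

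Single islands illustrate the range. Those named needed at least 100 H3K27ac reads, at least 10 background reads and no H3K122ac island within 5000 bp, and chromosome 8 was left out. Among them the highest H3K27ac fold was 11.1, over 16 background reads, at chrX:123122401-123123000 (hg19). Called H3K122ac islands of like background had folds of 5.01 or more, and the nearest one, 23.8 kb away, had a fold of 40.9. At chr1:93576801-93577800 the H3K27ac fold was 10.1, from 125 reads over 18. Both islands stood on low background counts, where the H3K122ac list needed a high fold. Another one, chr5:56544601-56545600, had an H3K27ac fold of 10.0 from 145 reads over 21 and the highest H3K4me1 fold of the islands eligible to be named, 11.3 from 138 reads. Its H3K27ac and H3K4me1 islands had the same ends, and the nearest H3K122ac island was 48.8 kb away.

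The folds of the 2 marks were both high in some islands and unlike in others. Both were high at chrX:11226601-11229000, where the H3K27ac fold was 5.88 from 206 reads over 51, at percentile 99.0 of the class. The H3K4me1 island inside it had a fold of 10.3. Called H3K122ac islands at the background of the whole H3K27ac island started at a fold of 1.94, and no H3K122ac island lay within 43.0 kb. The H3K4me1 island held 27 background reads, and at 30 the lowest called H3K122ac fold was 2.78. At chr2:15779801-15782200, H3K27ac was weak, with a fold of 1.85 from 170 reads over 134, around an H3K4me1 island of 800 bp with a fold of 10.3. Here the lowest H3K122ac fold called at the background of the whole H3K27ac island was 1.39. The H3K4me1 island held only 22 background reads, and at 20 the lowest called H3K122ac fold was 3.87. By contrast, chr7:120611201-120611600 had the highest excess H3K27ac density, 323 reads per kb, with an H3K4me1 fold of 1.72. Excess density is the number of H3K27ac reads per kb, scaled to the depth of the background library, less the background reads per kb. That island held 60 background reads in 400 bp, or 150 per kb, far above the class median of 55.0. Of the other islands of high excess density, chr5:39007201-39007800 had an H3K27ac fold of 4.64 and an H3K4me1 fold of 5.28, and chr7:148538401-148538800 had 3.75 and 2.52.

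Islands near the class medians looked unremarkable. At chr12:132462201-132463400 there were 115 H3K27ac reads over 77 background reads, a fold of 2.17, inside an H3K4me1 island of 6200 bp with a fold of 2.81 that held 4 H3K122ac-negative islands. At chr3:23883001-23884200 there were 108 reads over 71, a fold of 2.21, inside an H3K4me1 island of 9600 bp with a fold of 2.88 that also held 4. The nearest H3K122ac islands were 7.80 and 14.8 kb away.

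The longest H3K122ac-negative islands were of another kind. The island chr9:134060001-134091200 spanned 31200 bp with a fold of 1.44, over 6042 background reads, and its H3K4me1 island covered 21.8% of it with a fold of 1.11. On chromosome 22, chr22:23605001-23632800 and chr22:22035201-22057600 had folds of 1.11 and 1.27. Background in these 3 islands was 178 to 246 reads per kb, against 55.0 for the class. K562 is known for an amplified BCR-ABL1 fusion that joins parts of chromosomes 9 and 22, and whether these islands lie in it was not tested. Of 4 windows of 1 Mb whose background density was over 3 times the median window, 3 were neighbours on chromosome 22, from 21000001 to 24000000 (hg19), and the other was the mitochondrial genome. They held 33 H3K122ac-negative islands, with a median H3K27ac fold of 1.51. These were 25.6% of the H3K27ac islands there, against 30.1% over all windows. Among the 85 H3K122ac-negative islands over 10 kb, 16 had over 100 background reads per kb and 9 (10.6%) were on chromosome 22. Of all 52446, 2.03% had over 100 background reads per kb and 944 were on chromosome 22.

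The distance to H3K122ac varied widely. The median gap from an H3K122ac-negative island to the nearest H3K122ac island was 5400 bp, with quartiles of 1800 and 14000 bp. It was 12200 bp for H3K27ac islands with neither other mark. A gap over 5000 bp was found for 27179 H3K122ac-negative islands, or 51.8% (51.4 to 52.3%), against 75.5% of those with neither mark. A gap over 50000 bp was found for 1716, or 3.27%. The H3K122ac-negative islands with H3K4me1 were thus nearer to H3K122ac than those without H3K4me1, a difference not tested because the islands along a chromosome are not independent.

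The edge of the rule was soft. At the inner side 101 H3K122ac-negative islands touched an H3K122ac island end to end with no shared base, with a median H3K27ac fold of 2.11 and 1200 bp at the median. Just outside, 1395 islands with H3K4me1 shared a single 200 bp window with H3K122ac, with a median fold of 2.51 and a length of 400 bp. These 1395 include islands only 200 bp long, which H3K122ac covered whole, so they are not all marginal overlaps. For H3K4me1, 2052 H3K122ac-negative islands had a largest overlap of 200 bp, with a median fold of 2.34. They include the 776 H3K122ac-negative islands of 200 bp, which H3K4me1 covered whole and whose median fold was 2.83. Another 111 H3K27ac islands with neither other mark touched H3K4me1 without sharing a base, with a median fold of 1.88.

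H3K27ac varied little with the gap, and H3K4me1 varied more. The median H3K27ac fold was 2.15 at gaps over 400 and up to 1000 bp, 2.18 at 5000 to 20000 bp and 2.23 at 50000 to 100000 bp, and it was 1.95 in the 201 islands beyond. Over the same first 3 gaps the median H3K4me1 fold was 3.57, 2.58 and 2.50, while background stayed between 53.3 and 55.1 reads per kb. The H3K4me1 islands met were of 2 kinds. Of the H3K122ac-negative islands, 32.1% (16813) lay in an H3K4me1 island that met H3K122ac elsewhere along its length. Their H3K4me1 islands were long, with a median of 8400 bp, and strong, with a median fold of 3.86, at gaps up to 1000 bp (3.80) as at 5000 to 20000 bp (3.97). The other 67.9% (35633) lay in H3K4me1 islands without any H3K122ac, with a median length of 2600 bp and a fold of 2.42. In these the fold was 2.27 at gaps up to 1000 bp and 2.50 beyond 50000 bp, so no decline with the gap was seen within either kind of H3K4me1 island. The fold of H3K4me1 is that of its whole island, including any part under H3K122ac.

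**Figure D4:**
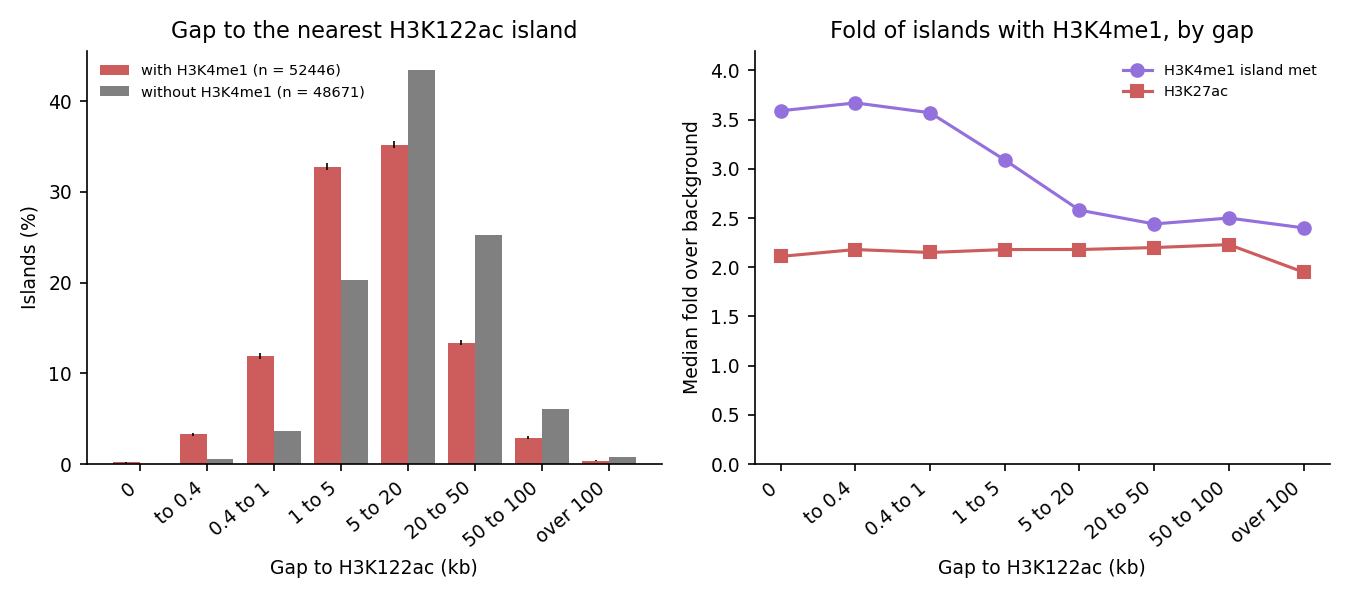
Left, share of islands (y axis, %, bars for Wilson 95% intervals on the red columns) by gap to the nearest H3K122ac island (x axis, kb), for H3K27ac islands without H3K122ac that met H3K4me1 (red) or did not (grey). Right, median fold over background of the H3K27ac island and of the H3K4me1 island met, by the same gaps: H3K4me1 goes from 3.57 at 0.4 to 1 kb to 2.58 at 5 to 20 kb, H3K27ac from 2.15 to 2.18.

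Within H3K4me1 islands, H3K122ac-negative H3K27ac islands were less central than islands with all 3 marks. Of them, 65.8% lay wholly inside H3K4me1, close to the 66.7% of islands with all 3 marks. Their centres fell in the middle 20% of the H3K4me1 island in 20.9% of cases, against 25.5% for islands with all 3 marks. The outer 20% at either end, or beyond it, held 44.0% against 35.7%, which includes 6.82% and 5.78% with a centre outside the H3K4me1 island. In 7.26% of H3K122ac-negative islands H3K4me1 covered under 50% of the length, against 3.41%. More than 1 H3K4me1 island was met by 508 of the 52446 H3K122ac-negative islands and by 4065 of the 68283 with all 3 marks. The latter were longer, at a median of 1600 against 1200 bp, and a longer island has more room to meet several. None of these differences was tested.

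Seen from the H3K4me1 list, 36587 of 113669 islands (32.2%) held at least 1 H3K122ac-negative H3K27ac island, each assigned to the H3K4me1 island it overlapped most. Exactly 1 was held by 26369 of them, and 566 held 5 or more, with a median length of 17600 bp. Where H3K4me1 islands held H3K122ac-negative islands and no H3K122ac at all (26243), the median fold was 2.37 and the median length 2000 bp. Where they held H3K122ac as well (10344), these were 3.76 and 6400 bp. The 25279 H3K4me1 islands with neither acetylation had a median fold of 2.12 and a length of 1200 bp. The most H3K122ac-negative islands in 1 H3K4me1 island free of H3K122ac were 12, at chr3:176819201-176852800, with H3K27ac folds of 1.61 to 8.44, a median of 2.66, and an H3K4me1 fold of 4.44. At chr12:62657001-62693800, an H3K4me1 island of 36800 bp with a fold of 7.57 held 11, with H3K27ac folds of 2.77 to 8.12 and a median of 4.11. Both are broad H3K4me1 islands with no H3K122ac called, the second with the higher folds of both marks. Their background was low, at 40.2 and 25.3 reads per kb of H3K4me1 island.

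H3K122ac-negative islands followed each other along the chromosome. The next H3K27ac island was another one in 50.8% of cases, while they made up 30.1% of all next islands. It carried all 3 marks in 26.4% of cases, against 39.2% overall. Of those with a neighbour on both sides, 43.4% had an island with all 3 marks on at least 1 side. Singletons made up 27.6% of the class (14468), and 1943 runs of 5 or more neighbours held 14108 islands. The matching values over all H3K27ac islands were not computed, so whether these 3 results are high or low was not tested. An H3K4me1 or H3K122ac island can span several H3K27ac islands, which were called with a smaller gap, and the part of this in the runs was not tested. Joining H3K27ac islands across 600 bp gave 32329 H3K122ac-negative islands.

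The longest run held 40 neighbouring islands over 124800 bp at chr4:127527001-127651800 (hg19), in 12 H3K4me1 islands. Its H3K27ac folds ranged from 1.83 to 8.28 with a median of 3.41, and 25 of the 40 reached 3 or more. The islands of the run held 7885 H3K27ac reads over 3345 background reads. H3K4me1 folds ranged from 2.56 to 8.14, and the longest H3K4me1 island, chr4:127608601-127634200, spanned 25600 bp with a fold of 3.90. On the left the nearest H3K122ac island was 110200 bp away. On the right one began 600 bp after the run, at chr4:127652401-127667800, with a fold of 8.57. The run thus lay beside an H3K122ac island and reached over 100 kb from it, but not as 1 unbroken stretch. Its H3K27ac islands covered 76800 of the 124800 bp. No H3K27ac island was called between those centred 59.2 and 73.0 kb from its start. The island of the run nearest to that H3K122ac island, chr4:127651001-127651800, had the highest H3K27ac fold, from 74 reads over 13.

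The second longest run, 25 islands over 78200 bp at chr2:102319001-102397200, was weaker in H3K27ac. Folds ranged from 1.40 to 4.24 with a median of 1.84, and 1 island reached 3. Its 8 H3K4me1 islands had folds of 2.43 to 4.54 with a median of 3.80, against a median of 4.02 over the 12 on chromosome 4. H3K122ac islands lay 2200 bp to its left and 400 bp to its right, with folds of 6.15 and 3.55.

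**Figure D5:**
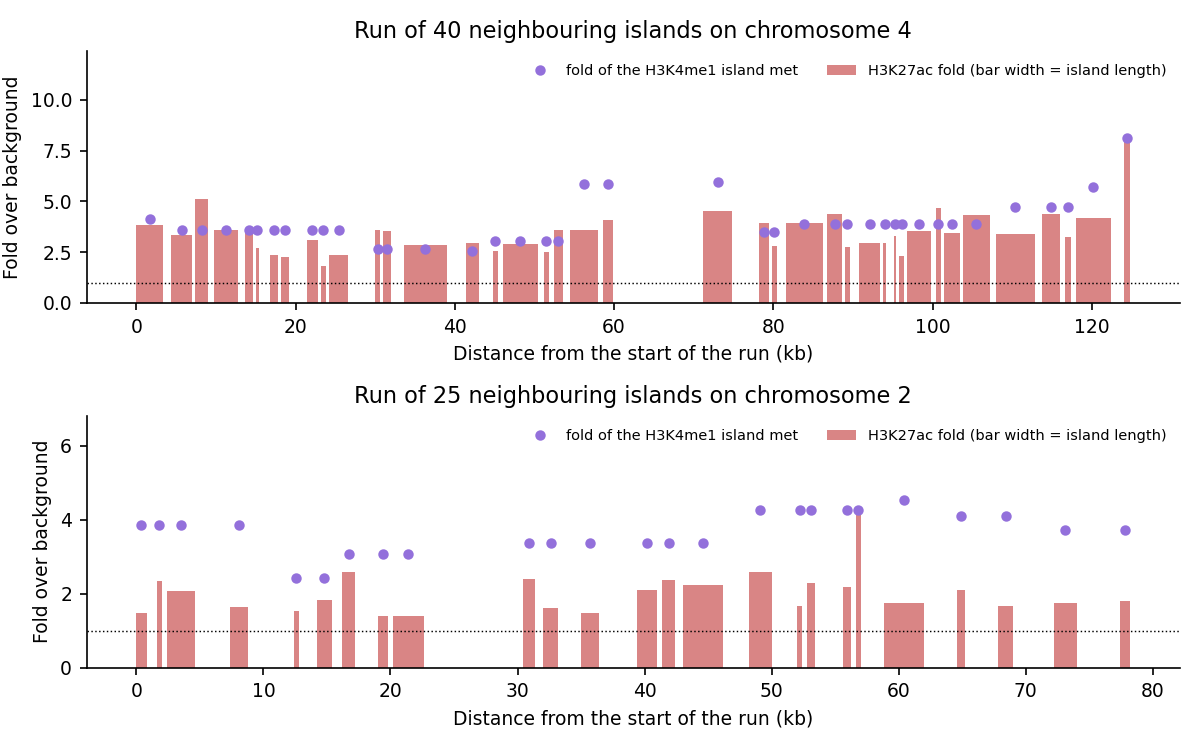
H3K27ac fold over background (bars, width to scale with island length) and fold of the H3K4me1 island met (points) along the 2 longest runs of H3K27ac islands with H3K4me1 and no H3K122ac, by distance from the start of the run (x axis, kb). On chromosome 4, 25 of 40 bars reach a fold of 3, and on chromosome 2, 1 of 25 does. Neighbouring bars can share an H3K4me1 island, and over the distinct H3K4me1 islands the median folds are 4.02 and 3.80.

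By chromosome, the share of H3K27ac islands that were H3K122ac-negative had a median of 30.3% over 23 chromosomes. It was highest on chromosomes 8 and 7, at 31.9% (30.8 to 33.0%) and 31.8% (30.8 to 32.7%). The lowest shares were 23.8% (22.7 to 24.9%) on chromosome 19 and 25.6% (23.9 to 27.5%) on chromosome 21. Over islands with H3K4me1 only, chromosomes 7 (46.6%) and 5 (46.3%) were highest, and 19 (32.3%) and X (34.9%) lowest. On chromosome 19 the islands with all 3 marks took 49.9% of the list, and on X 50.4%, against 39.2% overall. Median background in H3K122ac-negative islands was 53.8 reads per kb on chromosome 19 and 42.9 on X.

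Local density varied more. A window of 1 Mb with any H3K27ac island held a median of 16 H3K122ac-negative islands. The fullest window, chr15:64000001-65000000, held 132 among 276 H3K27ac islands (47.8%), next to 72 with all 3 marks. In chr5:53000001-54000000, 108 of 184 islands (58.7%) were H3K122ac-negative and 21 carried all 3 marks, with a median H3K27ac fold of 2.58 in the H3K122ac-negative ones. In chr9:127000001-128000000, 108 of 244 were. Background in the 3 windows, 50.8 to 55.1 reads per kb, was near the median window of 52.3. Of 2087 windows with at least 10 H3K27ac islands, 83 had at least 50% of them H3K122ac-negative.

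The islands farthest from H3K122ac were chr1:144005201-144016800, with a gap of 503 kb, chr2:236803801-236805600 with 246 kb and chr7:119363401-119365200 with 180 kb. The first had a fold of 1.43 over 2105 background reads, a density of 181 per kb, so it stood in high background. The second had a fold of 3.07 from 131 reads over 62, with an H3K4me1 fold of 4.92. The third had a fold of 1.55 from 144 reads over 135, with an H3K4me1 fold of 2.35.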

How the data were processed

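The 3 deposited K562 lists were used, for H3K27ac, H3K4me1 and H3K122ac, each from 1 library. The submitters' processing notes name Bowtie 0.12.8, HOMER 4.3 and SICER 1.1 and the build hg19; their roles were not stated in the sources used. Per the labels of the lists, islands were called in windows of 200 bp at a false discovery rate of 0.01, with gaps of 200 bp inside H3K27ac islands and 600 bp in the others. Per the layout of the lists, each gives the authors' raw read counts of the immunoprecipitated and a background library, a p-value and a q-value, and a fold. The deposited fold is the ratio of both counts divided by 1 library ratio per list, recomputed here, with a background of 0 entered as 0.25. The identity of the background library was not stated in the sources used. The lists of the mouse libraries were not used here.

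Overlaps were computed in Python 3.11.15 with pandas 2.3.3, tested on simulated islands, and the member count was checked with bedtools 2.31.1. Where an island met several, the largest overlap gave the fold. No test was made, since there is 1 library per mark. The members, lists and measures were chosen with earlier results of these data known. Named islands lay on numbered chromosomes other than 8 or on X, with at least 100 reads, 10 background reads in both lists and no H3K122ac within 5000 bp (12965 eligible). They were the 3 of highest H3K27ac fold, H3K4me1 fold, length, excess density and gap, and the 2 nearest the medians. Named too were the 3 fullest windows of 1 Mb, the 2 longest runs, the 2 fullest H3K4me1 islands and the 2 chromosomes at either extreme. Gene and sequence context of these regions was not analysed here. Alternatives are given in the closing section.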

Additional observations from a re-analysis of the deposited data

How the results depend on the processing

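The 6 summary values were recomputed under 11 alternatives, which gave 64 values. Of these, 27 stayed within the counting interval, within 1.5 times for the count, or the same to 2 decimals. Because lengths come in steps of 200 bp, an unchanged length difference says little about its stability. As reported there were 52446 H3K122ac-negative islands, 30.1% of the H3K27ac list, with 51.8% over 5000 bp from H3K122ac. The log2 differences in medians, islands with all 3 marks minus H3K122ac-negative islands, were 0.42 for H3K27ac fold, 0.42 for length and 0.31 for H3K4me1 fold, and are given below in this order. With 50% of the island covered the share was 31.3%, 45.8% were over 5000 bp away, and the differences in H3K27ac and H3K4me1 fold were 0.40 and 0.24. With no H3K122ac within 1000 bp the share was 25.5% and the H3K4me1 difference 0.37. With none within 5000 bp there were 27179 islands, 15.6%, and the H3K4me1 difference was 0.48. At a q-value of at most 1e-10 there were 27051, 27.5% of the list, 53.1% of them over 5000 bp away, with differences of 0.43, 0.32 and 0.16. At an H3K27ac fold of 2 or more there were 31567, 28.8%, with 52.6% over 5000 bp away and differences of 0.41, 0.58 and 0.22. At an H3K4me1 fold of 2 or more the share was 23.1%, with 47.7% over 5000 bp away and differences in length and H3K4me1 fold of 0.58 and 0.17. With H3K27ac islands joined across 600 bp there were 32329, 26.6%, with 59.2% over 5000 bp away and differences of 0.43, 0.58 and 0.37. Among the 20000 islands of highest fold per list there were 3863, 19.3%, with 68.5% over 5000 bp away and differences of 0.23, 0.70 and -0.05; this keeps fewer islands in every list, and the cause of the turn in sign was otherwise not tested. Requiring 10 background reads, numbered chromosomes only, or leaving out windows of high background moved none of the 6 values beyond those limits. No paired analysis was possible because each K562 mark has 1 library and the mouse replicates enter no comparison. At low background counts the called H3K122ac islands had high folds only, and the part of sequencing depth in the class was not tested.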

Other observations

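In 2524 H3K122ac-negative islands (4.81%) the H3K27ac and H3K4me1 islands had identical ends, and the background count was the same in both lists for 2524 of them. The median H3K27ac fold was 2.15 and the median H3K4me1 fold 2.50, and H3K4me1 had the higher fold in 70.3%. Among 3559 islands with all 3 marks and identical H3K27ac and H3K4me1 ends, these were 2.77, 3.50 and 72.9%. Folds from different antibodies are on different scales, so the sizes describe these libraries.

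A background over 100 reads per kb was found in 1063 H3K122ac-negative islands, 2.03% of them.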
